A study of Rattus with 9 samples.

Results

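The genes described here are the nuclear-encoded genes of the respiratory chain and ATP synthase. They were chosen by name alone. A symbol was taken when it began with Ndufa, Ndufb, Ndufc, Ndufs, Ndufv, Sdha, Sdhb, Sdhc, Sdhd, Uqcr, Cox4, Cox5, Cox6, Cox7, Cox8 or Atp5. This gave 98 of the 23836 symbols measured, held in 102 rows of the gene list. By role they were 36 genes of complex I, 4 of complex II, 8 of complex III, 21 of complex IV and 16 of complex V (ATP synthase). A further 12 were assembly factors (the Ndufaf and Sdhaf genes), and Atp5if1 is the protein that inhibits ATP hydrolysis by ATP synthase. Ndufa4 and Ndufa4l2 were counted with complex IV, where the Ndufa4 protein is found.

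Complexes I and II pass electrons from NADH and succinate to ubiquinone. Complex III hands them to cytochrome c and complex IV hands them to oxygen, and complexes I, III and IV pump protons that drive ATP synthase. Complexes I, III, IV and V mix nuclear products with subunits encoded in mitochondrial DNA (mtDNA), whereas complex II is wholly nuclear-encoded. In the bile duct, these genes are of interest because biliary epithelial cells depend on arterial blood, and cells short of oxygen are known to replace some subunits by isoforms.

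Extrahepatic bile ducts of rats were studied by droplet single-cell RNA sequencing of the 3′ ends of transcripts. Strain, sex and age were not given in the labels. The sham group held 3 samples, named sham 1, 2 and 3. The ctrl group held ischemically injured ducts after liver transplantation (LT), with a single sample on day 1, on day 3 and on day 7 post-LT. The treat group held ducts after LT with ligation of the splenic and gastroduodenal arteries, which was done to enhance hepatic artery blood flow, with the same days and number of samples. All ducts were digested with collagenases, dispase and DNase, and red and dead cells were removed. Each ctrl and treat sample was sequenced as 3 libraries, of which 2 were used for treat day 3, and each sham sample as 1 library. The labels tie no library to a rat, so all libraries of a sample were summed into 1 value. A ctrl or treat sample is therefore the only sample of its day and group, and day and sample cannot be told apart.

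After removal of low-quality barcodes and likely doublets, 139846 cells were kept, between 2278 in sham 1 and 31705 in ctrl day 7. Their unique molecular identifiers (UMIs) summed to between 9266398 in sham 1 and 191096003 in treat day 1. Sham 1 stood apart, since 41.4% of the UMIs in its empty barcodes came from mtDNA, against 4.67 to 14.9% in the other samples. In ctrl day 3, the limit on haemoglobin transcripts removed 2479 of 2923 and 3966 of 4312 barcodes of libraries 2 and 3, so this sample rested mostly on library 1. No pair of libraries shared more than 51 cell barcodes, and no pair shared more than 1.27% of the smaller library. Cells were grouped into 32 clusters, of which 26 were named by marker genes as biliary epithelial cells (BEC), vascular smooth muscle cells (VSMC), fibroblasts, endothelial cells (EC), macrophages and other classes. Of all cells, 13617 stayed in 6 unnamed clusters. The names below mean "like" these cell types, as judged by markers.

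Levels are given as CPM, the UMIs of a gene per 1000000 UMIs of a class in a sample. Of the 98 genes, 86 averaged at least 10 CPM over all cells and 8 averaged under 1 CPM. No gene was without any UMI, but Ndufa1 and Cox7b2 had 1 UMI each, Sdhaf1 had 2 and Cox6c-ps1 had 9. The heart and muscle isoforms Cox8b and Cox6a2 had 80 and 909 UMIs, and the testis isoform Cox8c had 65. Cox6b1, Ndufa10l1, Ndufv3 and Uqcrb had more than 1 row under the same symbol, and their rows were summed. A near-absent count such as that of Ndufa1, an accessory subunit of complex I, describes these count tables and not the protein.

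The genes took up the largest share of the transcriptome in VSMC and the smallest in neutrophils. In VSMC they held 3.95% ± 0.52 of UMIs (SD, n = 9 samples) and in BEC 3.57% ± 0.43 (SD, n = 9). Dendritic cells (DC) and EC followed at 3.15% ± 0.18 (SD, n = 8) and 3.15% ± 0.35 (SD, n = 9), then lymphatic EC at 3.08% (n = 8) and macrophages at 3.05% ± 0.41 (SD, n = 9). Fibroblasts and natural killer and T (NK&T) cells had 2.76% ± 0.37 and 2.65% ± 0.37 (SD, n = 9 each). From VSMC down to NK&T cells, each class differed from the next by less than 1 SD of the higher class, although the gap from BEC to DC was above the SD of DC. B cells, at 1.75% ± 0.13 (SD, n = 8), and neutrophils, at 1.19% ± 0.33 (SD, n = 8), were separated by more than that, although the 2 ranges overlapped because neutrophils of sham 3 reached 1.94%. These levels are a description and were not tested. The VSMC cluster held RNA of endothelial cells as well, since 9 of 10 EC markers were detected in it and their summed level was between 935 and 3158 CPM by sample. With finer clusters (Leiden resolution 2), 1989 cells were named VSMC in place of 2891, the EC markers held 189 to 439 CPM, and the genes held 4.26% of UMIs. The UMIs of mtDNA followed another order, with 2.19 and 2.06 mtDNA UMIs for every UMI of the nuclear genes in B cells and neutrophils, 1.498 in BEC and 0.79 in VSMC.

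**Figure D1:**
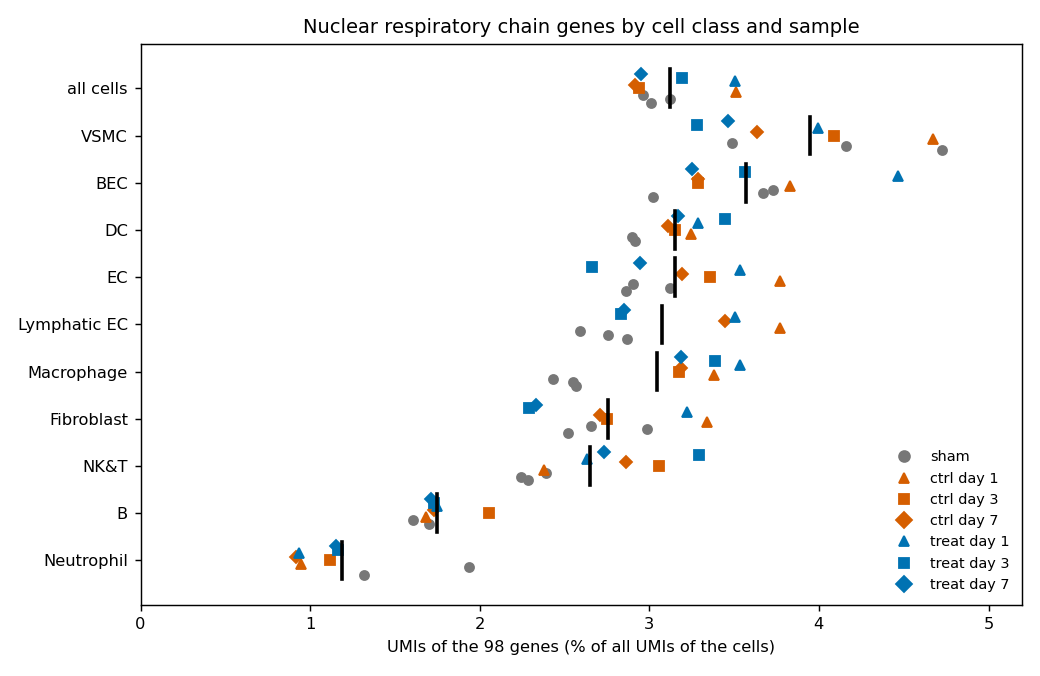
Percent of UMIs taken by the 98 nuclear-encoded genes (horizontal axis) in all cells and in each cell class measured in at least 8 samples (vertical axis). Each sample is 1 point coloured by group, and a black bar marks the mean. VSMC average 3.95% and neutrophils 1.19%.

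The proportions of the complexes varied among the classes. Over all cells, 24.9% of the UMIs of the 98 genes came from complex I, 1.34% from complex II, 11.5% from complex III, 32.9% from complex IV and 26.5% from complex V. Assembly factors gave 0.82% and Atp5if1 gave 2.06%. These proportions count transcripts as captured, with no correction for how well each gene is captured. Among classes measured in at least 8 samples, complex I ranged from 19.7% ± 1.82 in B cells (SD, n = 8) to 26.9% ± 1.39 in fibroblasts (SD, n = 9). Neutrophils had the most complex IV, 35.8% ± 2.41, and the least complex V, 23.4% ± 2.28 (SD, n = 8 each). The next classes lay within 1 SD of them, with DC at 35.6% ± 1.28 of complex IV (SD, n = 8) and VSMC at 24.6% ± 0.78 of complex V (SD, n = 9). B cells had the most complex V, 29.9% ± 1.43 (SD, n = 8), with DC within 1 SD at 28.6% ± 0.93 (SD, n = 8).

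Gene by gene, the low level in neutrophils was broad but uneven. Among the 86 genes of at least 10 CPM, compared over 10 classes, 62 had their lowest mean in neutrophils and 20 in B cells. The highest mean was in VSMC for 37 genes and in BEC for 21. The median gene stood in neutrophils at 35.4% of its median over the other classes. Cox7c, a small structural subunit of complex IV, was far below that at 6.5%, with 81.7 CPM in neutrophils and between 51.1 and 135 CPM over 8 samples, against a median of 1258 CPM in the other classes. Ndufab1, the mitochondrial acyl carrier protein that is also part of complex I, was at 8.9%, with 23.7 against 267 CPM. Ndufa7 and Ndufa8, accessory subunits of complex I, stood at 112.5% and 127.2% and Ndufaf7, an arginine methyltransferase that assembles complex I, at 202.4%. Ndufaf7 was the only 1 of the 86 genes with its highest mean in neutrophils. In B cells the median gene stood at 52.7% and in VSMC at 135% of the other classes.

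**Figure D2:**
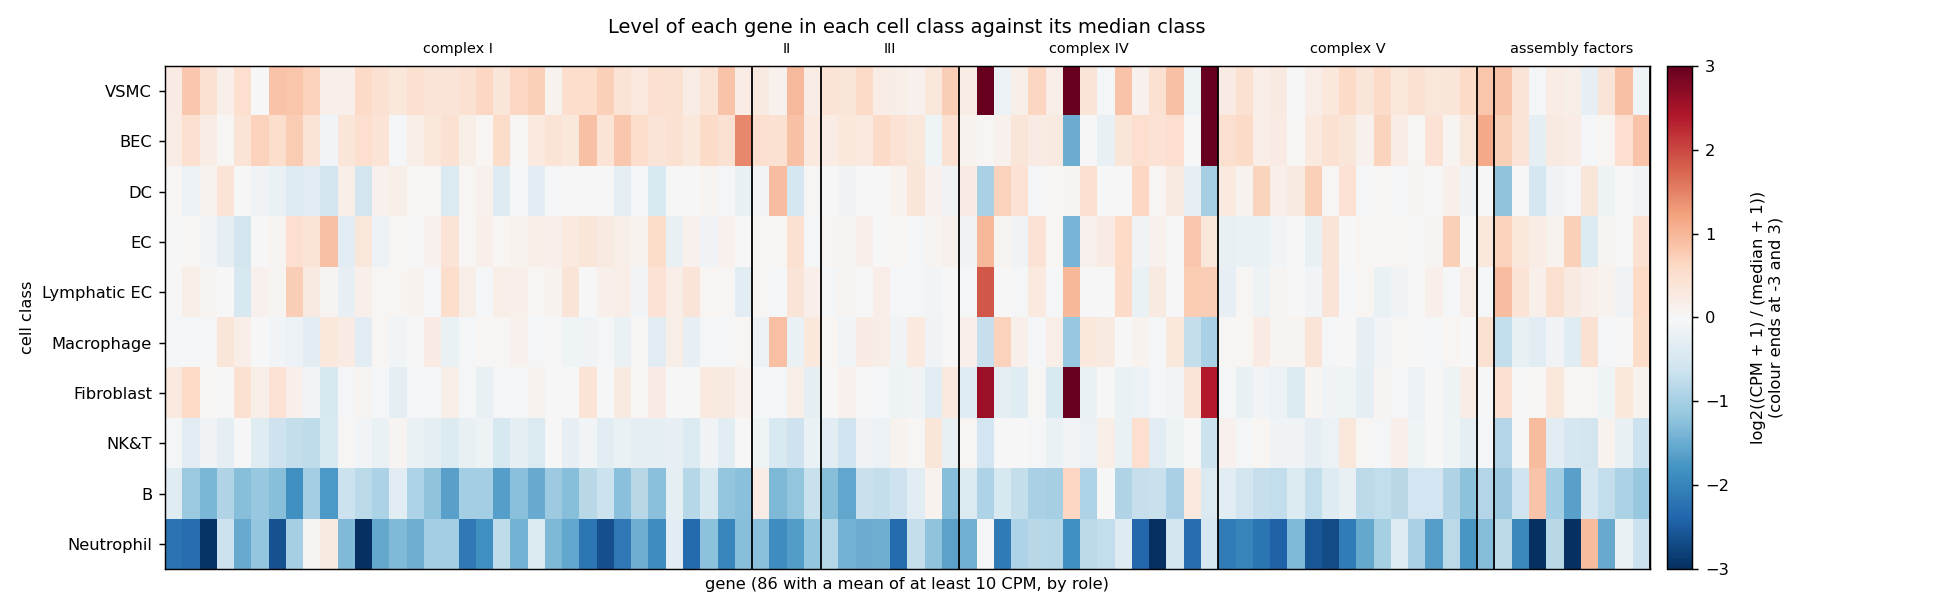
Mean level of each of the 86 genes with at least 10 CPM (columns, grouped by role and not labelled singly, with Atp5if1 alone between complex V and the assembly factors) in 10 cell classes (rows), as log2 of CPM + 1 over the gene's median class + 1, with the colour scale ending at −3 and 3. The neutrophil row is low for most genes, 62 of which have their lowest mean there.

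The core subunits differed in where they were highest. Ndufs1 and Ndufv1, which carry electrons inside complex I, were highest in BEC at 23.3 ± 4.85 and 131 ± 19.4 CPM (SD, n = 9). Sdha, the flavoprotein of succinate dehydrogenase, was highest in BEC at 70.1 ± 7.39 CPM (SD, n = 9). Sdhb, its iron-sulphur partner, was highest in DC at 248 ± 68.0 CPM (SD, n = 8) and nearly equal in macrophages at 245 ± 28.5 CPM (SD, n = 9). Uqcrc1, a core protein of complex III, reached 179 ± 30.4 CPM in BEC (SD, n = 9). The Rieske protein Uqcrfs1 reached 214 ± 48.4 CPM in DC (SD, n = 8), again within the spread of the next class, BEC, at 213 ± 40.8 CPM (SD, n = 9).

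Of the nuclear subunits around the core of complex IV, Cox4i1 was highest in DC at 1432 ± 176 CPM (SD, n = 8) and VSMC at 1403 ± 167 CPM (SD, n = 9), and lowest in neutrophils at 444 ± 116 CPM (SD, n = 8). Cox5a was highest in macrophages at 848 ± 282 CPM (SD, n = 9) and DC at 838 ± 197 CPM (SD, n = 8), and was 120 ± 34.9 CPM in neutrophils. Atp5f1a and Atp5f1b, the subunits that form the catalytic head of ATP synthase, were highest in BEC at 301 ± 47.4 and 497 ± 63.7 CPM (SD, n = 9). Their inhibitor Atp5if1 was also highest in BEC, at 955 ± 96.5 CPM (SD, n = 9), against 177 ± 48.3 CPM in neutrophils (SD, n = 8). The leading class was within 1 SD of the next for Cox4i1, Cox5a, Atp5f1a and Atp5f1b, whereas VSMC, the next class for Atp5if1, had 779 ± 116 CPM (SD, n = 9).

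A few isoform genes belonged to 1 or 2 classes. Cox4i2 replaces Cox4i1 in complex IV and is known from lung, vessels and low oxygen. In VSMC, Cox4i2 was 531, 593 and 475 CPM in sham, 1317, 1337 and 838 CPM at days 1, 3 and 7 of ctrl, and 642, 455 and 665 CPM at the same days of treat. Every ctrl sample was above every sham and treat sample. With finer clusters this did not hold, since VSMC of treat day 7 had 1105 CPM of Cox4i2 and those of ctrl day 7 had 1099 CPM. Of the UMIs of Cox4i1 and Cox4i2 together in VSMC, Cox4i2 took 24.0, 28.8 and 28.0% in sham, 45.8, 46.9 and 40.6% in ctrl and 31.3, 25.3 and 35.5% in treat.

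Ndufa4l2 is a paralogue of Ndufa4 and a known target of HIF, a transcription factor that is active when oxygen is low. In VSMC, Ndufa4l2 was 261, 348 and 247 CPM in sham, 857, 1106 and 680 CPM at days 1, 3 and 7 of ctrl, and 305, 327 and 573 CPM in treat. The ctrl samples were again above all others, but with finer clusters treat day 7 had 924 CPM and ctrl day 7 had 884 CPM. Its share of the UMIs of the pair Ndufa4 and Ndufa4l2 in VSMC was 34.6, 32.2 and 21.7% in sham, 56.8, 72.7 and 56.6% in ctrl and 26.3, 35.2 and 49.7% in treat. In BEC, Ndufa4l2 was near 0 in sham, with 0, 2 and 3 UMIs, and stood at 179, 48.8 and 2.05 CPM at days 1, 3 and 7 of ctrl, from 9631, 430 and 44 UMIs. In BEC of treat it was 0.65, 1.14 and 0.76 CPM. In fibroblasts Ndufa4l2 was 1.29, 1.36 and 1.27 CPM in sham, 50.3, 32.2 and 27.9 CPM in ctrl, and 0.96, 2.64 and 1.18 CPM in treat, with no overlap between ctrl and the other 6 samples. Macrophages and EC of the same samples had at most 1.59 and 5.00 CPM.

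The libraries of ctrl day 1 differed in Ndufa4l2. In BEC, library 1 had 2.22 CPM and libraries 2 and 3 had 231 and 324 CPM. In fibroblasts the same libraries had 4.07, 94.5 and 197 CPM, from 200, 40 and 98 cells, and in VSMC 374, 1187 and 1345 CPM. The share of UMIs in glycolysis genes in BEC was 0.61% in library 1 and 1.58 and 1.64% in libraries 2 and 3. At day 3 of ctrl, BEC had 47.4, 6.87 and 95.6 CPM of Ndufa4l2 in libraries 1 to 3, the last from 38 cells. At day 7 of ctrl the fibroblast libraries had 4.57, 74.3 and 13.8 CPM.

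VSMC were the class richest in Ndufa4l2, and their marker RNA was measured in the other classes. The summed level of 10 VSMC markers in BEC was 21.1 to 47.6 CPM in sham, 7.42, 17.8 and 23.1 CPM at days 1, 3 and 7 of ctrl and 25.01 to 34.4 CPM in treat. In fibroblasts the same markers held 322 to 1313 CPM in sham, 141, 1876 and 1674 CPM in ctrl and 573 to 1459 CPM in treat. The part of VSMC RNA in the fibroblast values was not tested beyond this. After subtraction of an estimate of free RNA, Ndufa4l2 in BEC of ctrl was 178, 49.1 and 1.02 CPM, and in fibroblasts 47.3, 31.8 and 27.8 CPM.

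**Figure D3:**
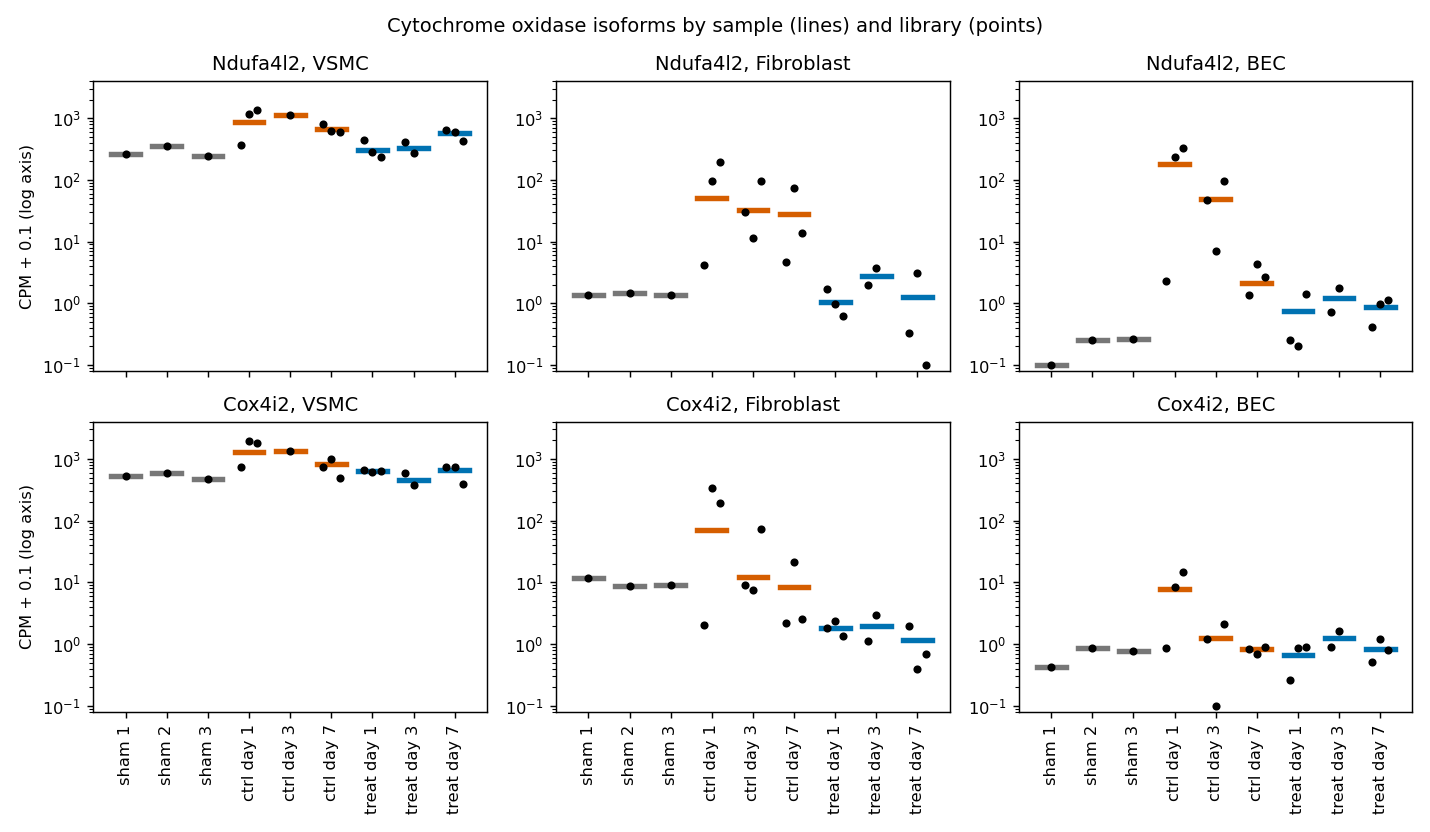
Ndufa4l2 and Cox4i2 in VSMC, fibroblasts and BEC by sample, in CPM + 0.1 on a log axis. Lines mark the samples and points their libraries with at least 20 cells. In BEC, Ndufa4l2 is 179 CPM at day 1 of ctrl and at most 1.14 CPM in the treat samples.

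Other isoforms were thinner. Cox6b2, known from testis, was found in fibroblasts at 66.3 ± 26.6 CPM (SD, n = 9) and in VSMC at 53.1 ± 27.4 CPM (SD, n = 9), and at no more than 8.45 CPM on average in the other classes measured in at least 8 samples. Cox7a1, the heart and muscle isoform, averaged 3.66 ± 1.13 CPM in BEC (SD, n = 9) and at most 1.19 CPM in the other classes measured in at least 8 samples. Cox8b in lymphatic EC was 98.3, 26.9 and 2.31 CPM in sham, from 38, 36 and 1 UMIs, and 0 in all 5 post-LT samples measured, where 0 UMIs allow up to 0.91 to 5.75 CPM by counting error alone.

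Comparison of ctrl with sham asked how the injured ducts differed from uninjured ones. A gene was called changed when its adjusted p (edgeR quasi-likelihood test, Benjamini-Hochberg over all genes tested) was under 0.05. The 3 ctrl samples are different days, so the spread within ctrl holds the change over days. In all cells together, 2 of 92 genes tested rose, against a background of 2.02% of all genes. After TMM scaling, 84 of 92 had a positive log2 fold change, with a median of 0.38 against −0.01 over all genes. Without that scaling, the respiratory genes held 3.03% ± 0.08 of all-cell UMIs in sham and 3.12% ± 0.34 in ctrl (SD, n = 3 each). This difference is smaller than the SD of ctrl, so the share does not show a broad rise over all cells. Cox5a, a complex IV subunit, was 448, 389 and 342 CPM in sham and 706, 664 and 614 CPM in ctrl. Its log2 fold change after TMM scaling was 1.11 (SE 0.16, adjusted p = 0.036). Cox6a2 was 0.43, 0.28 and 0.16 CPM in sham and 1.25, 2.05 and 1.32 CPM in ctrl (log2 fold change 2.89, SE 0.44, adjusted p = 0.038). Its levels rested on 4, 15 and 10 UMIs in sham and 123, 105 and 193 UMIs in ctrl. Of these, VSMC held 82 at day 1 of ctrl, and macrophages held 93 and 129 at days 3 and 7. Within each class sham and ctrl overlapped. Macrophages had 0.89, 5.52 and 0.72 CPM in sham and 0.97, 5.08 and 2.99 CPM in ctrl. VSMC had 5.55, 2.84 and 10.1 CPM in sham and 17.7, 6.94 and 0.17 CPM in ctrl. Neither gene's groups overlapped over all cells, which adds nothing to the p of genes picked from these same samples. No gene was called without sham 2, sham 3, ctrl day 3 or ctrl day 7. Over all cells, a change in level inside cells and a change in the mix of cells cannot be told apart, and fibroblasts made up 4.26, 34.4 and 46.7% of the cells of sham 1, 2 and 3 and 2.63, 5.86 and 3.26% of those of ctrl at days 1, 3 and 7.

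The class named macrophages carried most of the calls. There, 33 of 86 genes tested rose and 0 fell, against backgrounds of 6.86% higher and 7.29% lower over all genes. The median log2 fold change was 0.69, against −0.03 over all genes, and 83 of the 86 were positive. The genes that rose were 16 of 35 in complex I, 1 of 4 in complex II, 4 of 8 in complex III, 5 of 13 in complex IV, 6 of 15 in complex V and 1 of 10 assembly factors. The share of UMIs of all 98 genes in macrophages was 2.57, 2.55 and 2.43% in sham and 3.38, 3.17 and 3.19% in ctrl. The treat samples, which do not enter this comparison, had 3.54, 3.39 and 3.19%.

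Cox5a had the smallest p in macrophages, at 659, 452 and 445 CPM in sham and 989, 925 and 894 CPM in ctrl (log2 fold change 1.12, SE 0.22, adjusted p = 0.0168). Ndufb8, an accessory subunit of complex I whose protein is often used as a gauge of its assembly, was 325, 267 and 241 CPM in sham and 458, 499 and 399 CPM in ctrl (0.96, SE 0.19, adjusted p = 0.0178). Ndufa12 rose from 130, 159 and 135 CPM to 250.4, 223 and 226 CPM (0.99, SE 0.20, adjusted p = 0.0188). In none of these genes did the groups overlap, but they were picked by p in this same comparison, so this adds no support.

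Uqcr10, a small subunit of complex III, was 499.5, 507 and 497 CPM in sham macrophages and 831, 753 and 763 CPM in ctrl (log2 fold change 0.91, adjusted p = 0.0193). Sdhc, which anchors succinate dehydrogenase in the membrane, was 30.2, 21.3 and 38.8 CPM in sham and 51.0, 68.1 and 57.6 CPM in ctrl (1.21, adjusted p = 0.0197). Cox6a1 was 258, 259 and 260.2 CPM in sham and 414, 384 and 393 CPM in ctrl (0.88, adjusted p = 0.0211). These 3 genes also kept their groups apart, with the same limit. Ndufs5, Atp5md, Ndufb2 and Ndufaf6 completed the 10 genes of smallest p, with log2 fold changes of 0.88, 0.91, 0.90 and 1.23. The largest fitted values among the genes not called were 1.31 in Ndufs6 (adjusted p = 0.33) and −0.99 in Ndufaf4 (adjusted p = 0.099).

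The macrophage count depended on the samples, the scaling, the clustering and the unit tested. It was 58 without sham 1 (22.8% of all genes tested were called in that fit), 1 without sham 3 (1.52%) and 0 without sham 2 (1.59%). It was 4, 7 and 17 without ctrl day 1, 3 or 7 (8.17, 5.39 and 17.1% of all genes). With total UMIs in place of TMM scaling it was 10 (16.9%), with finer clusters (Leiden resolution 2) 4 (4.22%) and with libraries as samples 8 (8.38%). The 16.9% counts genes called in either direction, most of them lower, and is not a share of rises alone. The 33 genes called above had a positive fold change, 33 of 33, in each of these fits. They were picked for a rise in these same samples, so this adds no support. The class was mixed, and its name covers monocyte-like cells too. Clusters 11, 13 and 21 had C1q genes among their leading genes. Clusters 4 and 9 had Fcnb and cluster 16 had Csf1r there, and these had no C1q gene among them. The make-up of the class also moved, since cluster 21 held 14.2, 57.3 and 56.0% of sham macrophages and 4.801, 2.18 and 5.41% of ctrl macrophages. Cluster 9 held 4.79, 1.15 and 0.21% of those of sham and 50.0, 36.2 and 18.6% of those of ctrl. Sham 2 and sham 3 had 5 and 1 cells in cluster 9, too few for a fit within it. Cluster 13 held 66.7, 16.4 and 13.3% of sham macrophages and 35.6, 14.5 and 12.3% of ctrl macrophages. Within single macrophage clusters, 20 of 82 genes rose in cluster 21 (background 5.92%) and 14 of 74 in cluster 4 (background 5.33%), while 0 of 77 were called in cluster 13 (background 0.157%) and 0 of 67 in cluster 16 (background 0.103%). Of the 33 genes, 32, 32, 29 and 33 had a positive fold change within clusters 4, 13, 16 and 21. In cluster 21 the share of UMIs was 2.15, 2.36 and 2.36% in sham and 2.93, 3.70 and 3.88% in ctrl. The median UMIs per macrophage were 1276, 2676 and 2659.5 in sham and 5194, 6781.5 and 4203.5 in ctrl, and the part of depth in the result was not tested.

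In the connective tissue and vessel wall, Ndufa4l2 was the gene that rose. It was the only 1 of 89 genes called in fibroblasts (background 0.798%), with a log2 fold change of 5.05 (SE 0.43, adjusted p = 0.0096), and the only 1 of 85 called in VSMC (background 0.291%), with 1.62 (SE 0.25, adjusted p = 0.0335). Cox4i2 in VSMC had a log2 fold change of 1.12 and missed the threshold (adjusted p = 0.068). With finer clusters both genes were called in VSMC. The cells of this class also differed between the groups. Its marker Myh11 was 3612, 1958 and 1077 CPM in sham, 205, 435 and 251 CPM in ctrl and 453, 568 and 447 CPM in treat. Other markers overlapped between sham and ctrl. Acta2 was 21629, 4797 and 2639 CPM in sham and 1735, 3885 and 1969 CPM in ctrl. The sum of 10 VSMC markers was 55123, 19249 and 11519 CPM in sham and 7340, 15507 and 9495 CPM in ctrl. The part of these marker levels in the VSMC results was not tested. In fibroblasts Ndufa4l2 was not called without sham 2 or sham 3. The make-up of the class differed between the groups, since cluster 10 held 62.9, 55.4 and 72.3% of the fibroblasts of sham and 0, 1.35 and 0% of those of ctrl at days 1, 3 and 7, and cluster 8 held 95.6% of those of ctrl day 1 and 0.424 to 8.25% of those of sham. Within cluster 7 Ndufa4l2 was at 3.35, 1.89 and 1.81 CPM in sham, the first from 1 UMI, and at 29.7 and 28.1 CPM at days 3 and 7 of ctrl. In VSMC Ndufa4l2 was not called without sham 2, sham 3, ctrl day 1 or ctrl day 3, nor when ctrl day 1 was taken from library 1 alone, where its log2 fold change was 1.34.

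No gene was called by edgeR in BEC (89 tested, background 1.88%), EC (84 tested, background 1.01%) or NK&T cells (83 tested, background 0.288%), though 7, 13 and 29 genes had an unadjusted p under 0.05 and DESeq2 called 3, 0 and 1. Of all genes tested, 22.6, 18.5 and 20.96% had such a p and DESeq2 called 9.99, 3.72 and 3.37%, so that the count at an unadjusted p was above the share of all genes in NK&T cells and below it in BEC and EC. Ndufa4l2 in BEC missed the threshold (adjusted p = 0.0596), with the day 7 sample of ctrl at 2.05 CPM. Inside BEC cluster 6, 48 of 88 genes rose (background 12.4%), with a median of 0.51, and in cluster 12 1 of 86 rose (background 1.45%). Cluster 6 held 34.2, 73.9 and 83.5% of the BEC of sham and 39.7, 17.2 and 4.51% of those of ctrl.

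The difference between classes was tested as an interaction. The macrophage change differed from that of VSMC in 1 of 86 genes, Ndufv2 of the complex I NADH-binding arm, by a log2 fold change of 1.31 (adjusted p = 0.037, background 1.50%). It differed in 0 of 92 genes from BEC (background 1.93%), 0 of 84 from EC (background 3.06%), 0 of 90 from fibroblasts (background 2.39%) and 0 of 83 from NK&T cells (background 3.14%). At an unadjusted p under 0.05 there were 49 genes against VSMC, 29 against EC, 28 against BEC, 23 against fibroblasts and 16 against NK&T cells, where 16.4, 19.3, 18.9, 18.7 and 17.4% of all genes tested had such a p. The median difference was 0.69 against VSMC, 0.58 against BEC, 0.47 against fibroblasts, 0.40 against EC and 0.27 against NK&T cells, and between −0.00 and 0.09 over all genes. By the adjusted test the rise was not shown to be particular to macrophages.

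**Figure D4:**
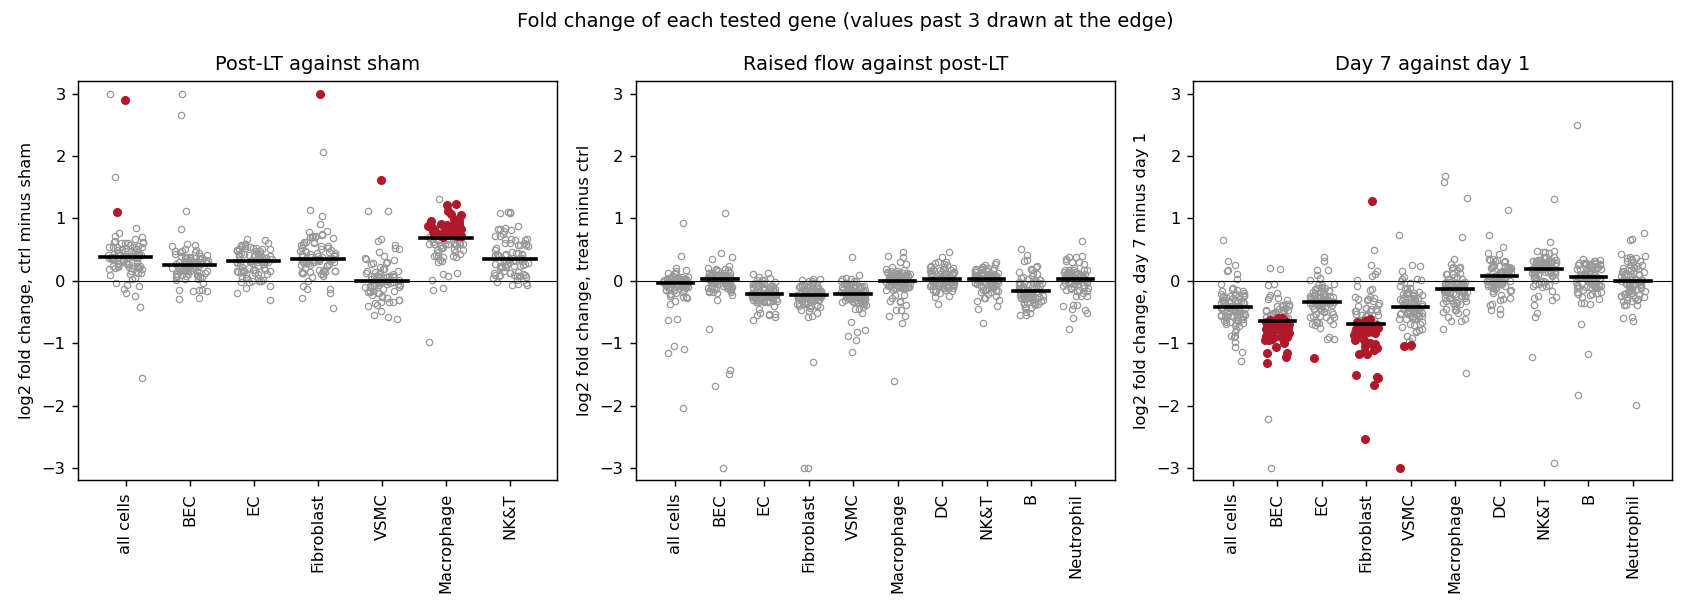
log2 fold change of each gene (1 point a gene) in each cell population for the 3 comparisons, with genes of adjusted p under 0.05 in red, a bar at the median, and values beyond 3 drawn at the edge. Red points gather in macrophages for ctrl against sham and in BEC and fibroblasts for day 7 against day 1.

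Comparison of treat with ctrl, with the day as a term, asked what enhanced arterial flow changed after LT. None of the 98 genes passed in any of 10 populations by edgeR. The tested genes numbered 93 in all cells, 82 in B cells, 91 in BEC, 84 in DC, 87 in EC, 89 in fibroblasts, 91 in macrophages, 88 in NK&T cells, 82 in neutrophils and 90 in VSMC. The background was 0.00% in each of these except B cells, at 0.0142%, and neutrophils, where 0.130% of all genes were lower. The genes with an unadjusted p under 0.05 were 12 in fibroblasts, 7 in EC, 6 in BEC, 5 in VSMC, 3 in macrophages, 2 in all cells, 1 each in DC and neutrophils and 0 in B and NK&T cells. Of all genes tested, 15.01, 10.8, 14.5, 11.2, 7.01 and 4.83% had such a p in the first 6 of these populations, and 4.71, 6.19, 4.10 and 3.37% in DC, neutrophils, B and NK&T cells, so that in each population the respiratory genes lay below that share. DESeq2 called 2 genes lower in fibroblasts, 2 in VSMC and 1 in BEC, where it called 0.982, 0.304 and 1.92% of all genes lower. Median log2 fold changes were −0.22 in EC and fibroblasts, −0.21 in VSMC, −0.17 in B cells and between −0.04 and 0.03 in the others. The missing calls do not show that the groups were alike.

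Ndufa4l2 had the largest difference between treat and ctrl in BEC, fibroblasts, VSMC, macrophages and all cells. Its log2 fold changes by edgeR were −5.63 in BEC (adjusted p = 0.28), −4.81 in fibroblasts (adjusted p = 0.104) and −1.15 in VSMC (adjusted p = 0.216). In macrophages it had −1.60 (adjusted p = 0.70) and in all cells −2.05 (adjusted p = 0.89). The macrophage value rested on 18, 11 and 22 UMIs in ctrl and 6, 4 and 13 UMIs in treat. After subtraction of the estimate of free RNA, each of these was 0. In EC it had 0.13 and Cox4i2 led at −0.63, and in B cells, DC, NK&T cells and neutrophils other genes led. In fibroblasts every treat sample was below every ctrl sample, as in VSMC except with finer clusters. In BEC the treat samples were at most 1.14 CPM and the lowest ctrl sample was 2.05 CPM. Ndufa4l2 had the largest difference in these same samples, so this separation adds no support. Cox4i2 was 70.2, 11.95 and 8.23 CPM in fibroblasts of ctrl and 1.72, 1.84 and 1.07 CPM in those of treat (log2 fold change −4.14, adjusted p = 0.148), and in VSMC the fitted difference of Cox4i2 was −0.96 (adjusted p = 0.194). The 3 sham samples had 11.6, 8.54 and 8.86 CPM of Cox4i2 in fibroblasts, above all 3 treat samples.

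Comparison of day 7 with day 1, over ctrl and treat together, asked how the genes moved over the first week post-LT. It set 2 samples against 2, with 2 residual degrees of freedom. In BEC, 48 of 91 genes tested fell and 0 rose, against backgrounds of 10.1% lower and 5.77% higher. The median log2 fold change was −0.65, against −0.00 over all genes, and 89 of 91 were negative. They were 21 of 35 genes of complex I, 1 of 4 of complex II, 5 of 8 of complex III, 6 of 16 of complex IV, 10 of 16 of complex V and 5 of 11 assembly factors. The share of UMIs in BEC went from 3.83 to 3.29% in ctrl and from 4.47 to 3.25% in treat, and in sham it was 3.02, 3.67 and 3.73%. By cluster, the share from day 1 to day 7 went from 3.89 to 3.21% in cluster 3 of ctrl and from 4.35 to 3.12% in that of treat. In cluster 6 it went from 4.50 to 4.80% in ctrl and from 4.81 to 4.44% in treat, and in cluster 12 from 2.80 to 2.92% and from 3.55 to 2.84%.

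Sdhd, the other membrane anchor of succinate dehydrogenase, was 195 and 208 CPM in BEC at day 1 of ctrl and treat, 143 and 126 CPM at day 3 and 119 and 116 CPM at day 7 (log2 fold change −1.07, SE 0.13, adjusted p = 0.0178). The sham samples had 118, 131 and 119 CPM of Sdhd, within the range of days 3 and 7. Ndufab1 was 471 and 577 CPM at day 1, 332 and 336 CPM at day 3 and 279 and 294 CPM at day 7, with 262, 350.1 and 370.0 CPM in sham (−1.16, SE 0.14, adjusted p = 0.0178). Uqcrq, a small complex III subunit, was 1028 and 1279.7 CPM at day 1, 809 and 819 CPM at day 3 and 695 and 708 CPM at day 7 (−1.001, SE 0.15, adjusted p = 0.0211). Cox5a was 756 and 848 CPM at day 1, 632 and 614 CPM at day 3 and 513 and 498 CPM at day 7, all above its sham values of 392, 441 and 438 CPM (−0.96, SE 0.14, adjusted p = 0.0212).

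Ndufa4 in BEC went from 770 and 1055 CPM at day 1 to 399.5 and 483 CPM at day 7, below its sham values of 566, 852 and 940 CPM (log2 fold change −1.33, adjusted p = 0.024). The Rieske protein Uqcrfs1 was 270 and 285 CPM at day 1 and 186 and 182 CPM at day 7 (−0.88, adjusted p = 0.0229). Ndufaf4 and Ndufaf7, which assemble complex I, had −1.15 and −1.23, and Uqcrb, Ndufb5 and Ndufb6 −0.94 each. Atp5if1 had a log2 fold change of −0.05 after TMM scaling, although its CPM were not lower, with 822 and 931 CPM at day 1 and 1147 and 934 CPM at day 7. Cox4i1 in BEC had −0.45 after the same scaling (adjusted p = 0.119), with 1347 and 1482 CPM at day 1 and 1301 and 1236 CPM at day 7.

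With total UMIs in place of TMM scaling, the count in BEC was 9 (3.22% of all genes were lower) and the median −0.36, while the median over all genes went from −0.00 to 0.29. Without ctrl day 1, ctrl day 7 or treat day 7 no gene was called (1.97, 0.0853 and 0.196% of all genes were), and without treat day 1 there was 1 call (1.72%). The BEC also changed cluster over time, since cluster 3 went from 6.18 to 78.7% of BEC in ctrl and from 9.59 to 88.1% in treat. Cluster 6, where the genes held the largest share, went from 39.7 to 4.51% of BEC in ctrl and from 56.3 to 5.99% in treat, and 7 markers of cycling cells were detected in it. Within cluster 3, 22 of 89 genes fell (background 7.22%) with a median of −0.53. Within cluster 6 it was 1 of 86 (background 0.165%) and within cluster 12 it was 0 of 87 (background 0.0102%). With cells of at most 10% mtDNA UMIs, 6 genes fell, where 2.79% of all genes did. The 48 genes called above had a negative fold change, 48 of 48, in that fit, with total UMIs and without any 1 of the 6 samples. They were picked for a fall in these same samples, so this adds no support. Within clusters 3, 6 and 12, 48, 45 and 42 of them had a negative fold change.

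In fibroblasts, 46 of 89 genes fell and 1 rose from day 1 to day 7, against backgrounds of 13.4% lower and 14.0% higher, and the median was −0.70 against 0.05 over all genes. The genes that fell were 20 of 35 in complex I, 0 of 4 in complex II, 5 of 8 in complex III, 5 of 15 in complex IV, 10 of 15 in complex V and 6 of 11 assembly factors. Ndufab1 was 503 and 416 CPM in fibroblasts at day 1 of ctrl and treat and 199.8 and 158 CPM at day 7 (log2 fold change −1.54, SE 0.21, adjusted p = 0.0063). Atp5mc1, a gene for the c subunit of the rotor ring of ATP synthase, was 917 and 923 CPM at day 1 and 489 and 436 CPM at day 7 (−1.17, SE 0.20, adjusted p = 0.0104). In sham, Atp5mc1 was 499, 591 and 478 CPM, near the later days. Atp5f1a was 292 and 262 CPM at day 1 and 157 and 156 CPM at day 7 (−0.99, SE 0.19, adjusted p = 0.0149).

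Assembly factors were among the deepest falls in fibroblasts, with log2 fold changes of −1.67 in Ndufaf4, −1.56 in Ndufaf2, −1.51 in Ndufaf7 and −1.11 in Ndufaf6. Cox4i2 fell by 2.53 on the log2 scale (adjusted p = 0.0416), from 70.2 CPM at day 1 of ctrl and 1.72 CPM at day 1 of treat to 8.23 and 1.07 CPM. Cox6b2 moved the other way, from 27.7 and 27.8 CPM at day 1 to 83.9 and 68.2 CPM at day 7 (1.28, SE 0.24, adjusted p = 0.0128), with 59.2, 90.5 and 107 CPM in sham. Without ctrl day 7 it had 1.04 and was not called.

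In fibroblasts 17 genes were called with total UMIs as scaling, 18 without ctrl day 1, 36 without treat day 1, 0 without ctrl day 7 and 5 without treat day 7, where 24.3, 19.6, 22.5, 0.647 and 9.23% of all genes were called. The 24.3% with total UMIs counts genes called in either direction, most of them higher, and is not a share of falls alone. Cluster and day could not be told apart in fibroblasts. Cluster 8 held 95.6 and 97.7% of them at day 1 of ctrl and treat, and cluster 7 held 98.9 and 95.8% at day 7. The median UMIs per fibroblast also fell, from 24607 and 12794 at day 1 to 9714 and 9096.5 at day 7, and those per BEC from 10278 and 11628 to 4862 and 3815. The part of depth in these counts was not tested.

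Elsewhere few genes were called from day 1 to day 7, although libraries as samples gave 31 calls of 88 in VSMC, 21 of 85 in EC and 28 of 92 in all cells, where 25.6, 20.8 and 27.8% of all genes were called. In VSMC, 3 of 90 fell (background 1.69%), which were Ndufa3 at −1.02 and Atp5mc1 at −1.05 (adjusted p = 0.0361 each) and Cox6a2 (adjusted p = 0.0095). Cox6a2 rested on 82 and 38 UMIs at day 1 and 1 and 2 UMIs at day 7. In EC, 1 of 87 fell (background 1.26%), the assembly factor Ndufaf2, from 44.5 and 34.2 CPM at day 1 to 18.9 and 15.6 CPM at day 7 (−1.25, adjusted p = 0.037). No gene was called by edgeR in all cells (93 tested, background 0.00%), B cells (82, 0.440%), DC (84, 1.00%), macrophages (91, 2.56%), NK&T cells (88, 1.37%) or neutrophils (82, 1.86%). At an unadjusted p under 0.05 these had 30, 1, 1, 6, 4 and 2 genes, and DESeq2 called 4 lower in all cells, 1 higher in macrophages and 0 in the others. Of all genes tested, 23.9, 5.88, 11.6, 21.01, 10.97 and 11.9% had such a p, and DESeq2 called 4.97% lower in all cells and 4.05% higher in macrophages. Within macrophage cluster 21, 8 of 84 genes rose (background 2.95%).

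Tests of the difference between classes gave unequal answers. From day 1 to day 7, BEC differed from NK&T cells in 64 of 92 genes (background 17.0%) and from DC in 31 of 90 (background 8.73%). They differed from macrophages in 4 of 92 (background 4.87%), led by Ndufa4 at −1.39, and from neutrophils in 2 of 89 (background 4.60%). Fibroblasts differed from DC in 45 of 90 genes (background 16.8%), from NK&T cells in 36 of 89 (background 19.4%), from macrophages in 5 of 92 (background 13.1%) and from neutrophils in 3 of 89 (background 7.48%). Against NK&T cells the genes of smallest p were Uqcrq in BEC, at −1.42, and Ndufab1 in fibroblasts, at −1.57. Against macrophages and neutrophils the shares were below the background by adjusted p. At an unadjusted p under 0.05, BEC differed from macrophages in 35 of 92 genes, where 2917 of 14049 genes did. BEC differed from neutrophils in 13 of 89 (1987 of 12346). Fibroblasts differed from macrophages in 20 of 92 (3861 of 13080) and from neutrophils in 13 of 89 (2712 of 12220). Only BEC against macrophages lay above the share of all genes, with a median of −0.50 against −0.07.

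The genes of mtDNA went another way in BEC. From day 1 to day 7, 5 of the 13 rose and 0 fell in BEC, against backgrounds of 5.77% higher and 10.1% lower. The 5 were Mt-nd2 (log2 fold change 1.06), Mt-co1 (1.23), Mt-co2 (1.45), Mt-co3 (1.196) and Mt-nd4 (1.23), and the median of the 13 was 1.14. Their share of BEC UMIs went from 2.93 to 8.31% in ctrl and from 2.87 to 8.47% in treat, with 4.89, 4.41 and 4.39% in sham. Within BEC cluster 3 it went from 3.84 to 9.23% in ctrl and from 4.38 to 8.98% in treat. In fibroblasts Mt-co2 was the only 1 of 13 called, at 0.66, which is below the 14.0% of all genes that were higher there. For ctrl against sham, 0 of 13 were called in any population, against the backgrounds given above. A high share of mtDNA UMIs is also a usual sign of damaged cells, and its part in the BEC result was not tested.

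**Figure D5:**
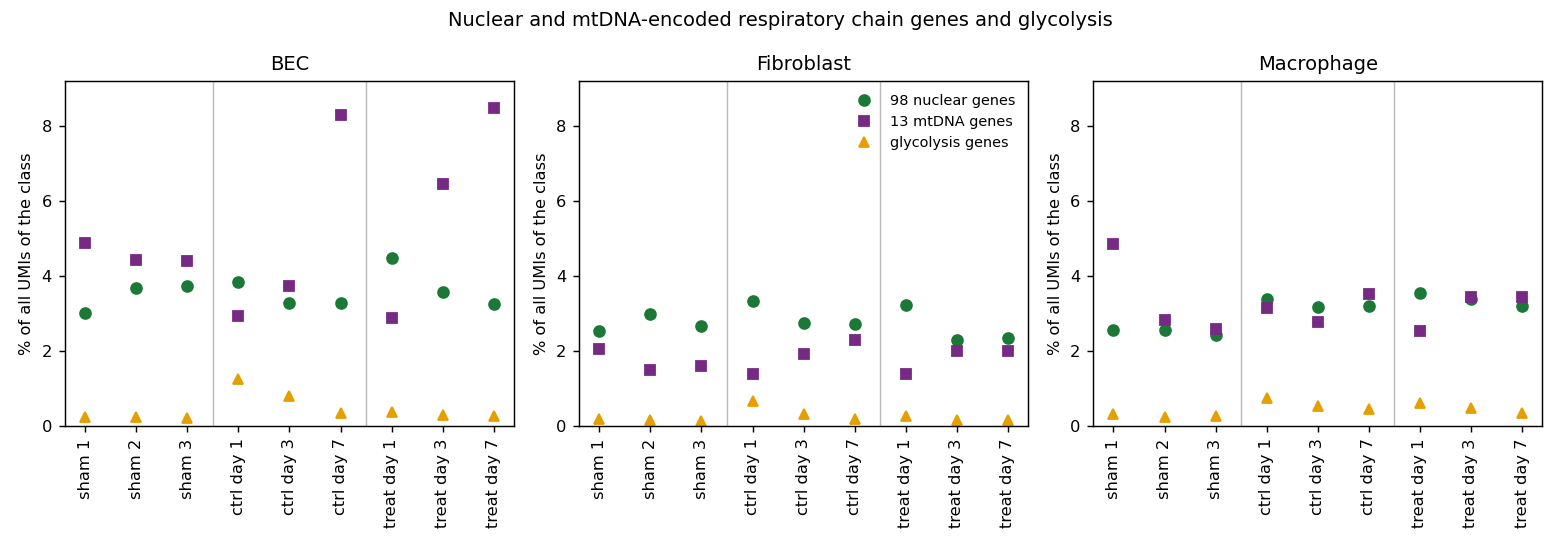
Percent of UMIs taken by the 98 nuclear-encoded genes, the 13 mtDNA genes and 14 glycolysis genes in BEC, fibroblasts and macrophages, by sample. In BEC the mtDNA share is 2.93 and 2.87% at day 1 and 8.31 and 8.47% at day 7, and the glycolysis share peaks at 1.25% at day 1 of ctrl.

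The neighbouring pathways are read against the shares of all genes given above for each class and comparison. For ctrl against sham, 9 of 14 glycolysis genes rose in macrophages and 1, Pfkp, fell, and 5 of 14 rose in all cells, among them the lactate dehydrogenase gene Ldha (log2 fold change 2.27) and the glucose transporter gene Slc2a1 (2.58). In BEC and fibroblasts the lactate exporter gene Slc16a3 was called, at 3.04 and 5.66. The glycolysis share of BEC UMIs was 0.23, 0.23 and 0.21% in sham, 1.25, 0.79 and 0.33% at days 1, 3 and 7 of ctrl and 0.36, 0.29 and 0.27% in treat. In macrophages it was 0.31, 0.24 and 0.25% in sham and 0.74, 0.54 and 0.44% in ctrl. From day 1 to day 7, 9 of 14 fell in fibroblasts and 3 of 14 in BEC, where 13.4% and 10.1% of all genes fell.

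The tricarboxylic acid cycle and pyruvate dehydrogenase genes fell beside the respiratory genes from day 1 to day 7, 6 of 15 in BEC and 6 of 15 in fibroblasts, where 10.1% and 13.4% of all genes fell, among them Mdh2 (malate dehydrogenase, −1.03 and −1.53) and Fh (fumarase, −1.36 in fibroblasts). Of 29 assembly and carrier genes outside the name rule, 5 fell in BEC and 8 in fibroblasts, against the same background, and both cytochrome genes were among them, Cycs at −1.12 and −1.61 and Cyc1 at −1.12 and −1.60. Of 11 regulators of mitochondrial biogenesis, Esrra (−0.73) and Tfam (−0.59) fell in BEC, and Tfam (−1.05) in fibroblasts, where 9 were tested. For ctrl against sham in macrophages, where 6.86% of all genes rose and 7.29% fell, Suclg1 and Dlat rose among the cycle genes, Etfb and Uqcc2 rose and Cox11 fell among the assembly and carrier genes, and Pprc1 fell among the regulators. Of 6 HIF targets of mitochondria, Bnip3 rose there by a log2 fold change of 2.65. In treat against ctrl, Bnip3 was the only gene of all these lists that was called, at −3.42 in neutrophils (adjusted p = 0.00159). Of 9 dissociation and stress genes, Atf3 and Hspa1b fell in macrophages of ctrl against sham and Egr1 in EC, and 0 were called from day 1 to day 7 in BEC and fibroblasts.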

How the data were processed

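Bile ducts of rats were profiled by droplet single-cell RNA sequencing in 9 samples of 3 groups. The matrices deposited by the authors hold raw UMI counts, not normalized, for every barcode including empty ones. The processing notes name Cell Ranger 5.0.1 and Seurat 3.2.0, whereas the matrix headers name Cell Ranger 4. The genome build is not given in the sources used here. Library 1 of treat day 3 was not analysed here.

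Cells had over 400 and under 6000 genes, under 25% mtDNA UMIs and under 3% haemoglobin UMIs. Of 161207 barcodes over 400 genes, 150379 passed, and the 10533 with the highest doublet scores were removed (limit at percentile 92.5 per library). Clustering (2000 variable genes, 30 principal components, 15 neighbours, Leiden resolution 0.9) left out the genes described and the pathway lists. The cluster settings and the rule for cycling cells were set after seeing the clusters' leading genes. A class was used in a sample with at least 20 cells.

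Counts were summed per class and sample and tested with edgeR 4.0.16 (TMM, low-count filter, quasi-likelihood, R 4.3.3), and with DESeq2 1.42.0 as an alternative. Ctrl against sham had no covariate. Treat against ctrl and day 7 against day 1 came from 1 fit with group and day. The p-values measure the spread between these samples. The scripts were tested on simulated data. Intervals and limits cover counting error only.

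Genes and lists were chosen with earlier results of these data known. Named were the core subunits, isoforms, 10 called genes of smallest p and the largest rise and fall in each comparison. Class levels at Leiden resolution 2 and fits within clusters, between classes and with library 1 of ctrl day 1 alone were added after seeing the data. The level of 1 of the core subunits is not reported here. Promoter motifs were not analysed, for want of sequences. Python 3.11.15 was used.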

Additional observations from a re-analysis of the deposited data

Results flagged for a closer look

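For ctrl against sham, the change in macrophages differed from that in VSMC in 1 of 86 genes by the interaction test, Ndufv2, below the 1.50% of all genes. For day 7 against day 1, the change in BEC differed from that in macrophages in 4 of 92 genes (4.87% of all genes), in NK&T cells in 64 of 92 (17.0%), in DC in 31 of 90 (8.73%) and in neutrophils in 2 of 89 (4.60%). For the same comparison, the change in fibroblasts differed from that in macrophages in 5 of 92 genes (13.1%), in NK&T cells in 36 of 89 (19.4%), in DC in 45 of 90 (16.8%) and in neutrophils in 3 of 89 (7.48%). These counts are given because single genes passed a test of the difference itself. The counts against VSMC, macrophages and neutrophils are below the share of all genes and are no result about the respiratory genes as a group.

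Ndufa4l2 was also counted in barcodes outside the comparisons. In goblet cells of ctrl day 1 it was 328 CPM, from 35 cells, and it was 0 in those of sham 3 and treat day 1. In the unnamed clusters it was 150 CPM in ctrl day 1, 11.4 CPM at day 3 and 7.86 CPM at day 7, against 2.90, 1.48 and 1.14 CPM in sham and 0.997, 1.83 and 3.59 CPM in treat. In empty barcodes it was 169, 47.7 and 22.9 CPM at days 1, 3 and 7 of ctrl, against 8.59, 3.29 and 5.55 CPM in sham and 7.50, 11.2 and 14.2 CPM in treat.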

How the results depend on the processing

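Of 443 counts of called genes under alternatives, 340 kept the direction and the side of the threshold, or came within 1.5 times the value above, while 47 were weaker and 56 stronger. Of 42 class levels, 41 stayed within the spread between samples, and acinar cells moved to 1.09% of UMIs from 3.15% at Leiden resolution 2. Of 746 values of single genes, 530 kept direction and side, 188 were weaker, 26 stronger and 2 reversed. For ctrl against sham, DESeq2 gave 19 in all cells, 3 in BEC, 2 in fibroblasts, 53 in macrophages, 1 in NK&T cells and 2 in VSMC, and no low-count filter gave 1 in BEC, 53 in macrophages, 17 in NK&T cells and 3 in VSMC. Libraries as samples gave 8 in macrophages and 0 in VSMC, Leiden resolution 2 gave 4 and 2, total UMIs as scaling gave 10 in macrophages, and library 1 alone for ctrl day 1 gave 0 in VSMC. Within clusters it was 48 and 1 in BEC clusters 6 and 12, and 14, 0, 0 and 20 in macrophage clusters 4, 13, 16 and 21. Leaving out 1 sample gave 0 to 3 in all cells, 0 to 2 in BEC, 0 to 1 in fibroblasts, NK&T cells and VSMC, and 0 to 58 in macrophages. Where the share of all genes called in the same fit is not given above, these counts have no background. They show the spread over settings and are no result about the respiratory genes.

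For treat against ctrl, DESeq2 gave 1 in BEC, 2 in fibroblasts and 2 in VSMC, no filter 2 in fibroblasts and 2 in VSMC, libraries as samples 1 in BEC and 2 in fibroblasts, cluster 6 gave 1 in BEC, and leaving out 1 sample 0 to 2 in fibroblasts. For day 7 against day 1, DESeq2 gave 4 in all cells, 3 in EC and 1 in macrophages, and no filter 3 in EC, 1 in macrophages, NK&T cells and neutrophils, and 14 in VSMC. Libraries as samples gave 28 in all cells, 21 in EC, 31 in VSMC, 2 in macrophages and 1 in neutrophils. Library 1 alone for ctrl day 1 gave 1 in all cells, and Leiden resolution 2 gave 1 in macrophages. Total UMIs as scaling gave 9 in BEC, 0 in EC and 17 in fibroblasts, subunits only 0 in EC, a limit of 10% mtDNA 6 in BEC, BEC clusters 3, 6 and 12 gave 22, 1 and 0 and macrophage cluster 21 gave 8. Leaving out 1 sample gave 0 to 3 in all cells and DC, 0 to 58 in BEC, 0 to 14 in EC, 0 to 52 in fibroblasts, 0 to 2 in macrophages, 0 to 6 in NK&T cells and 0 to 8 in VSMC. Ndufa4l2 in VSMC had 0.24 and turned to −0.13 without treat day 1 and −0.47 without treat day 7, in a range of −0.47 to 0.84. Fewer samples enter the fits without 1 sample, and the cause of the other changes was not tested. The counts of this paragraph carry the same limit, since those without a share of all genes above have no background.

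Total UMIs as scaling moved the split of all called genes, higher against lower, for ctrl against sham from 308 and 275 to 191 and 1149 in all cells, from 678 and 721 to 352 and 1320 in macrophages, from 102 and 131 to 50 and 183 in BEC and from 92 and 110 to 53 and 100 in fibroblasts. For day 7 against day 1 it moved from 777 and 1361 to 1594 and 433 in BEC and from 1616 and 1544 to 1851 and 950 in fibroblasts. Treat against ctrl already held the day as a term, the only pairing the labels give, and no gene was called without this replicate block in any of the 10 populations. The sham numbers match no day, so ctrl against sham could not be paired.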
